A study of Mus musculus with 4 samples.

Results

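The genes described here carry peptides to the cell surface on MHC class I molecules, the route by which a nucleated cell shows fragments of its own proteins to cytotoxic T cells. A list of 10 genes was followed in mouse microglia: the heavy chains H2-K1, H2-D1, H2-T23 and H2-M3, the light chain B2m, the peptide transporter subunits Tap1 and Tap2, the loading factor Tapbp, the trimming enzyme Erap1 and the transcriptional regulator Nlrc5. A value was taken only from a probe set that the platform annotation ties to exactly 1 gene symbol, the brightest per gene. That left 8 of the 10 genes, among 17629 genes kept on the arrays. The probe set naming H2-T23 carried 2 symbols and the one naming Nlrc5 carried 3, so no value is given for these genes. The probe set of H2-D1 carried 2 Entrez gene identifiers under its 1 symbol. The classical heavy chain genes are close copies of each other, so values of H2-K1 and H2-D1 are uncertain as to which copy was hybridised. The likeness of the transcripts was not measured here.

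All microglia came from the whole brain of male C57BL/6J mice. The arrays fall into 4 groups: OVA-treated mice of the allergy group at P70, PBS-treated control mice at P70, OVA-treated mice at P30 and PBS-treated control mice at P30, where P is the postnatal day. Cells were taken 1 day after a challenge given through the nose, and 4 samples were pooled for each group and measured on 1 array. With 1 array per group, there is no spread between replicates, no test and no p-value, and every difference below compares 2 pools. The labels used here do not say whether mice of both ages were sensitised on one schedule.

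A class I molecule is a heavy chain held by beta-2 microglobulin. Peptides made by the proteasome are moved into the endoplasmic reticulum by the TAP transporter, trimmed there by Erap1 and fitted into the heavy chain by tapasin, the product of Tapbp. Interferons raise the transcription of most of these genes, in part through Nlrc5, and microglia in the resting brain are known for low surface class I that increases during inflammation.

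Levels are log2 of the deposited intensity, and each difference is a difference of log2 levels of the same probe set between 2 arrays. A difference was counted when it reached 1.5-fold, which is 0.58 on the log2 scale. Counts of members are set against the 8815 expressed genes, those whose mean level reached the floor of 7.18, the median over genes. Of the 8 genes measured, 7 lay at or above that floor. Tap2 lay just below it, with a mean level of 7.13, and is kept in every count of the 8. The median intensity over all probe sets was 105 and 111 at P70 (OVA and PBS) and 132 and 131 at P30. The highest value of each array lay between 19.74 and 19.93 on the log2 scale, and every member stayed at least 1.81 below it. Between the ages, expressed genes as a whole differed: the median P70 minus P30 difference was 0.39 in OVA and 0.26 in PBS.

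The classical heavy chains H2-K1 and H2-D1, which present peptides to CD8 T cells, were more than 2-fold higher at P70 than at P30 under both treatments. H2-K1 had an intensity of 3064 in OVA and 2472 in PBS at P70, against 1291 in OVA and 1132 in PBS at P30. The P70 pools were both above the P30 pools, and at each age the OVA pool was above the PBS pool. P70 over P30 was 2.37-fold in OVA and 2.18-fold in PBS for this gene, whereas OVA over PBS was 1.24-fold at P70 and 1.14-fold at P30. H2-D1 had an intensity of 3658 in OVA and 2832 in PBS at P70, against 1465 in OVA and 1213 in PBS at P30. Its 4 pools fell in the same order as those of H2-K1, and the age ratios were 2.5-fold in OVA and 2.34-fold in PBS. OVA over PBS was 1.29-fold at P70 and 1.21-fold at P30 for H2-D1.

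H2-M3, a nonclassical heavy chain that binds N-formylated peptides of bacterial and mitochondrial origin, had an intensity of 1081 in OVA and 946 in PBS at P70, against 419 in OVA and 332 in PBS at P30. The order of the pools was again that of H2-K1. P70 over P30 was 2.58-fold in OVA and 2.85-fold in PBS. OVA over PBS was 1.14-fold at P70 and 1.26-fold at P30. In bulk RNA of this kind, a change in the number of cells of a type and a change in RNA per cell cannot be told apart.

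The promoters of these 3 heavy chain genes are shown because the genes shared the order of their 4 levels, and their upstream letters can be compared directly. RefSeq windows of GRCm38.p6, 300 bases each from 250 before the start to 50 after it, were searched on both strands. The letters sought were GAAANNGAA (the core of an interferon-stimulated response element), GAANNGAAA (the same core with the other spacing, added after the windows were read), GGGNNTTCC (an NF-kB site), CCAAT (the Y box) and TGACG (the X2 box, also a core of the CRE). Of 27025 promoters of this length, 8.57% hold the first, 7.56% the second, 5.72% the third, 37.9% the fourth and 21.0% the fifth, and the first pair overlap where both spacings are met. Capitals below mark every match, on the gene's strand from 5′ to 3′. The windows are chr17:34000298-34000597 on the minus strand for H2-K1, the first of 2 such windows in the table, and, on the plus strand, chr17:35262844-35263143 for H2-D1 and chr17:37269984-37270283 for H2-M3.
H2-K1: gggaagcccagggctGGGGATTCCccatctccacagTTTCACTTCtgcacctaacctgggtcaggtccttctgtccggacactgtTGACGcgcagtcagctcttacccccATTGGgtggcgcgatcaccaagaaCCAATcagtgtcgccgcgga
H2-D1: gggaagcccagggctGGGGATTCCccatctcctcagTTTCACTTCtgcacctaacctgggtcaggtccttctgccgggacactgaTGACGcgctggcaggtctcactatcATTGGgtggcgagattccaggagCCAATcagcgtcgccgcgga
H2-M3: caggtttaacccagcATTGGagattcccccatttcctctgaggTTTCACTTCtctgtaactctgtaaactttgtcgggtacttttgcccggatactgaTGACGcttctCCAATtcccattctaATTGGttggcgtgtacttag
The stretches run from -126 to 27 for H2-K1, from -186 to -34 for H2-D1 and from -144 to -2 for H2-M3, counted from 0 at the annotated start. All 3 hold a GAANNGAAA match, read here on the opposite strand, at -90, -150 and -101, followed by TGACG at -41, -101 and -46 and by a Y box. H2-K1 and H2-D1 also hold GGGNNTTCC, at -111 and -171, and H2-M3 has no match to those letters in its window. Lined up on that match with no gaps, 176 of 240 letters are the same between the H2-K1 and H2-D1 windows (73.3%), with the annotated starts 60 bases apart. The Y boxes stand at -16 and 8 in H2-K1 and at -76 and -53 in H2-D1, so their spacing differs. Letters from the second Y box on are therefore compared out of line, which lowers the share, and no count with a gap was made. A match is a description of letters in a window and was not tested as a binding site.

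B2m, the light chain shared by all class I molecules, showed the largest age difference of the 8 genes under both treatments. Its intensity was 284628 in OVA and 261362 in PBS at P70, against 75340 in OVA and 55861 in PBS at P30. P70 over P30 was 3.78-fold in OVA and 4.68-fold in PBS. The pools kept the order seen for the heavy chains, but the age ratios of B2m exceeded theirs: its P70 minus P30 difference was greater than that of H2-K1 by 0.67 in OVA and by 1.10 in PBS on the log2 scale, and greater than that of H2-M3 by 0.55 and 0.71. OVA over PBS was 1.09-fold at P70 and 1.35-fold at P30, so B2m differed more with OVA at P30, whereas H2-K1 and H2-D1 differed more at P70 by 0.12 and 0.097 on the log2 scale. None of these differences between the ages reached 1.5-fold. Under median centring, the values for H2-K1 and H2-D1 become -0.00 and -0.02, and under centring along the level -0.11 and -0.13.

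The B2m window, chr2:122147437-122147736 on the plus strand, is shown because it carries the other spacing of the interferon element, at -139 in a stretch from -154 to 49.
B2m: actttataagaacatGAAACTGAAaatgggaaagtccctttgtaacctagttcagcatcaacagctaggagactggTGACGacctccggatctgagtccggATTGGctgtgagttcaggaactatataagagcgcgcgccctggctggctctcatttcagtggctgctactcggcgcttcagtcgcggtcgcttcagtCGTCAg
It also holds TGACG at -78 and, on the opposite strand, at 44, and a Y box at -53, with no GGGNNTTCC match.

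Tap1 and Tap2, whose products form the TAP peptide transporter, showed no 1.5-fold difference in any comparison. Tap1 had a level of 8.62 in OVA and 8.47 in PBS at P70, against 8.34 in OVA and 8.46 in PBS at P30. OVA minus PBS was 0.16 at P70 and -0.12 at P30, and P70 minus P30 was 0.28 in OVA and 0.01 in PBS, so the 4 pools lay within 0.28 of each other. Tap2 had a level of 7.08 in OVA and 7.10 in PBS at P70, against 7.22 in OVA and 7.10 in PBS at P30, all near the floor. Tapbp, the tapasin gene, had a level of 8.80 in OVA and 8.70 in PBS at P70, against 8.75 in OVA and 8.85 in PBS at P30. Its 4 pools lay within 0.15 of each other, with no order by age. The signs of the age differences of Tap1 and Tap2 under both treatments, and of Tapbp in OVA, depend on how the arrays are scaled, whereas Tapbp in PBS stays negative. Under median centring Tap1 becomes -0.13 in OVA and -0.29 in PBS, and Tapbp -0.36 and -0.44. Tap2 ranges from -0.55 to 0.16 in OVA over the alternatives tried.

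The Tap1 window is shown because a neighbour that shares it had other values. This window, chr17:34187306-34187605 on the plus strand, overlaps by 275 bases the window of Psmb9, an immunoproteasome subunit read from the opposite strand.
Tap1: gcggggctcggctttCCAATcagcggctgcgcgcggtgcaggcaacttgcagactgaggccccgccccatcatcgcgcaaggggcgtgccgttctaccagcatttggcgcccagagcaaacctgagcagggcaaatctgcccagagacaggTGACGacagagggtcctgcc
In this stretch from -237 to -67 there is a Y box at -222 and TGACG at -86, and the window holds no match to either interferon spacing or to GGGNNTTCC. Psmb9 had a level of 9.37 in OVA and 9.20 in PBS at P70, against 8.50 in OVA and 8.52 in PBS at P30. P70 minus P30 of Psmb9 was 0.87 in OVA and 0.69 in PBS, both past 1.5-fold, against 0.28 and 0.01 for Tap1 across the shared window. Psmb9 has a mean level of 8.90 and lies in the seventh band of genes by level (the bands described below). In that band the median age difference was 0.59 in OVA and 0.42 in PBS, and 50.7% and 36.4% of genes were at least 1.5-fold higher.

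Erap1, the endoplasmic reticulum aminopeptidase that trims peptides to the length class I molecules hold, was the member whose values differed most between the OVA comparisons. Its intensity was 1193 in OVA and 985 in PBS at P70, against 441 in OVA and 627 in PBS at P30. The OVA pool was the higher at P70 (1.21-fold over PBS) and the lower at P30 (1.42-fold below PBS). The OVA effect at P70 minus that at P30 was 0.78, or 1.72-fold, the only such value past 1.5-fold among the 8 genes, and it could not be tested. P70 over P30 was 2.70-fold in OVA and 1.57-fold in PBS. The Erap1 window, chr13:74639603-74639902 on the plus strand, is shown because GAAANNGAA stands in it as an overlapping pair, at -9 and -3 on the opposite strand, across the annotated start.
Erap1: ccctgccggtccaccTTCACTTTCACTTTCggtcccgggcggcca
The stretch runs from -24 to 20 and holds no other match of those sought.

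**Figure D1:**
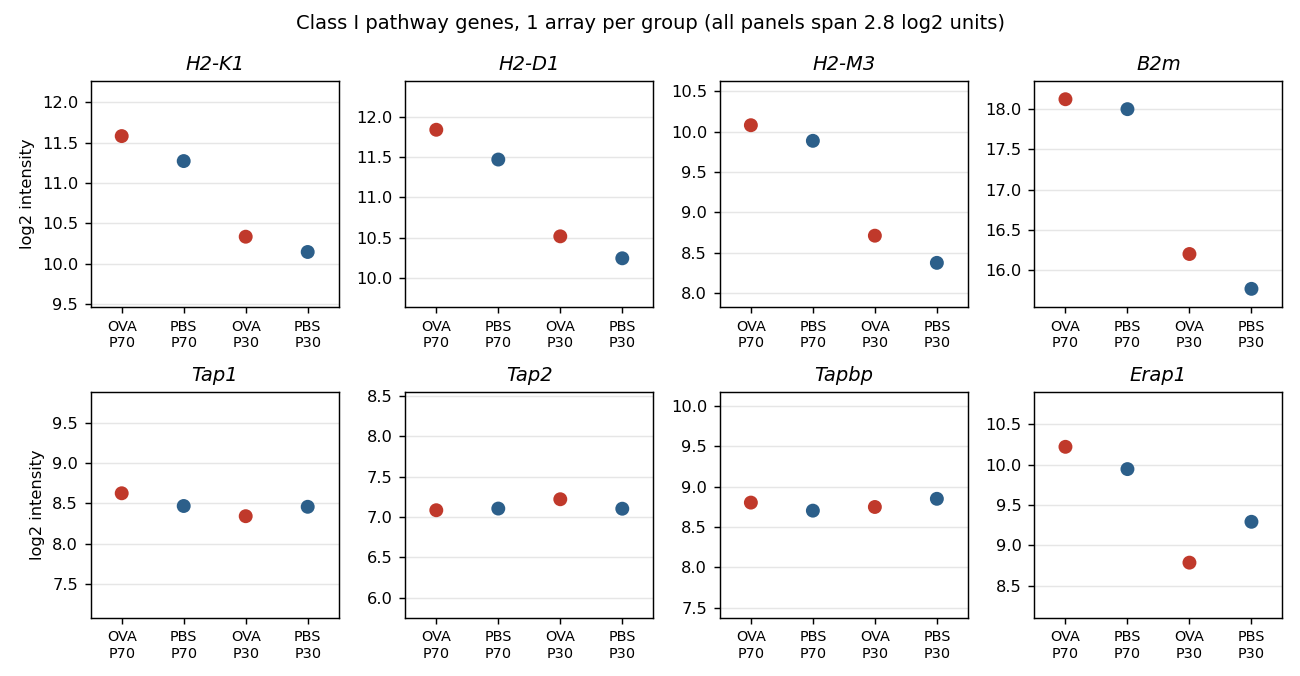
Levels of the 8 measured class I pathway genes on the 4 arrays, as log2 intensity, 1 point per pool and no error bars because each group has 1 array. H2-K1, H2-D1, H2-M3 and B2m have both P70 pools above both P30 pools, whereas Tap1, Tap2 and Tapbp lie nearly flat and Erap1 has its lowest point in OVA at P30.

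OVA against PBS at P70 gave small positive values for most of the pathway. Of the 8 genes, 7 had a positive difference, as had 65.0% of expressed genes, and none reached 1.5-fold in either direction, which 5.25% of expressed genes did (353 with OVA above PBS and 110 below). The median of the 8 was 0.18, against 0.09 over expressed genes, whose middle 50% ran from -0.06 to 0.25. H2-D1 at 0.37, H2-K1 at 0.31 and Erap1 at 0.28 lay above that range, at the 86.6th, 81.5th and 77.8th percentiles of expressed genes. Among genes of like level (the bands described below) they stood lower, at the 78.5th, 71.7th and 71.1st percentiles. Under centring along the level they fell to 0.19, 0.13 and 0.12. B2m at 0.12 lay near the middle, at the 55.7th percentile of expressed genes, and its value falls to -0.00 under centring along the level. Tapbp, at 0.10, becomes -0.00 under median centring and -0.01 under centring along the level.

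At P30, OVA against PBS gave positive values for the 3 heavy chains and B2m, between 0.19 and 0.43, whereas Tap1, Tapbp and Erap1 were negative and Tap2 was 0.12. Again none of the 8 reached 1.5-fold, and 1.55% of expressed genes did (58 above and 79 below). The middle 50% of expressed genes ran from -0.12 to 0.09, so this comparison was the narrower of the pair. Within it B2m stood at the 98.4th percentile, H2-M3 at the 96.7th, H2-D1 at the 94.6th and H2-K1 at the 88.6th, and Erap1 at the 1.53rd. The heavy chains and B2m kept their sign under all 3 alternative scalings, and Erap1 stayed between -0.51 and -0.48.

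The direct test of whether OVA acted differently at the 2 ages cannot be made with 1 array per group, and the values are given side by side. The P70 effect exceeded the P30 effect by at least 1.5-fold in 1 of the 8 genes, Erap1, and in 7.77% of expressed genes. It fell short of the P30 effect by as much in none of the 8 and in 2.28% of expressed genes. B2m had the lowest value, -0.31, at the 6.36th percentile of expressed genes of like level, and Erap1 stood at the 97.0th percentile of genes of like level.

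**Figure D2:**
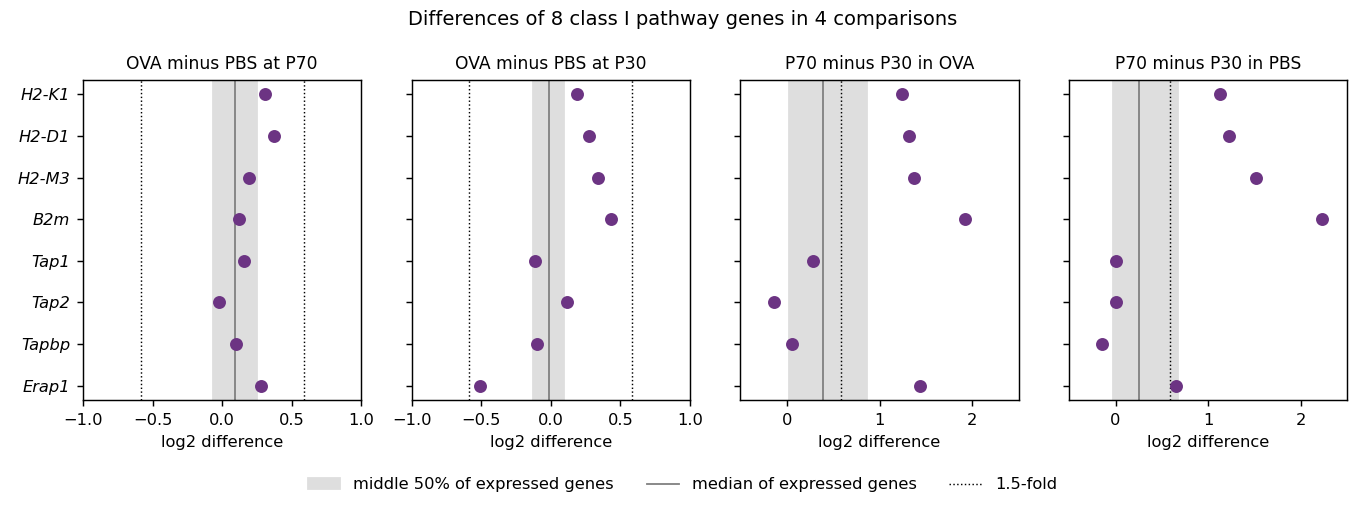
Log2 differences of the 8 genes in the OVA minus PBS comparisons and the P70 minus P30 comparisons, 1 point per gene, with the median and middle 50% of 8815 expressed genes beside them and dotted lines at 1.5-fold. No gene passes the line in either OVA comparison, and 5 of 8 pass it in each age comparison.

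Differences between the ages were larger than those between OVA and PBS for 5 of the 8 genes. P70 minus P30 reached 1.5-fold higher in 5 of the 8 genes in OVA and in the same 5 in PBS: H2-K1, H2-D1, H2-M3, B2m and Erap1. The background is high, since 38.6% of expressed genes were that much higher in OVA and 29.1% in PBS, and 4.37% and 2.93% that much lower. None of the 8 was 1.5-fold lower. The median of the 8 was 1.28 in OVA and 0.89 in PBS, against 0.39 and 0.26 over expressed genes. With each array centred on its median, 19.7% of expressed genes were higher and 14.2% lower in OVA, and 17.4% and 8.42% in PBS. The 4 levels fell in the order PBS P30, OVA P30, PBS P70, OVA P70 from low to high in 4 of the 8 genes, H2-K1, H2-D1, H2-M3 and B2m, and in 19.7% of expressed genes. Neighbours in that order cannot be told apart beyond their spread, which these arrays do not give.

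Age differences on these arrays ran with the level of the probe set, and the members sit at different levels. Expressed genes were divided into 10 equal bands by mean level. The top band, which holds H2-K1, H2-D1 and B2m, had a median P70 minus P30 difference of 1.14 in OVA and 0.91 in PBS, and 77.6% and 67.2% of its genes were at least 1.5-fold higher. H2-K1 lay at the 56.0th percentile of that band in OVA and the 60.5th in PBS, and H2-D1 at the 59.4th and 64.5th. Both classical heavy chains were thus near the middle of genes of their brightness. B2m lay at the 83.0th percentile in OVA and the 94.0th in PBS. H2-M3, in the eighth band, stood at the 87.9th and 94.6th percentiles of genes whose median difference was 0.72 in OVA and 0.53 in PBS. Erap1 shares that band and stood at the 89.6th percentile in OVA and the 59.0th in PBS.

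Tap1 and Tapbp lie in the sixth band, where the median age difference was 0.48 in OVA and 0.32 in PBS. Tap1 stood at the 34.3rd and 22.4th percentiles there and Tapbp at the 17.2nd and 12.5th, below most genes of like brightness. When every difference was centred on the trend along the level, H2-M3 kept 0.67 in OVA and 1.06 in PBS and B2m kept 0.80 and 1.16. Under the same centring H2-K1 fell to 0.22 in OVA and 0.36 in PBS, H2-D1 to 0.26 and 0.43, and Erap1 to 0.70 and 0.09, which leaves 3 of the 8 genes past 1.5-fold in OVA and 2 in PBS, where 13.3% and 11.6% of expressed genes were that much higher under this centring.

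**Figure D3:**
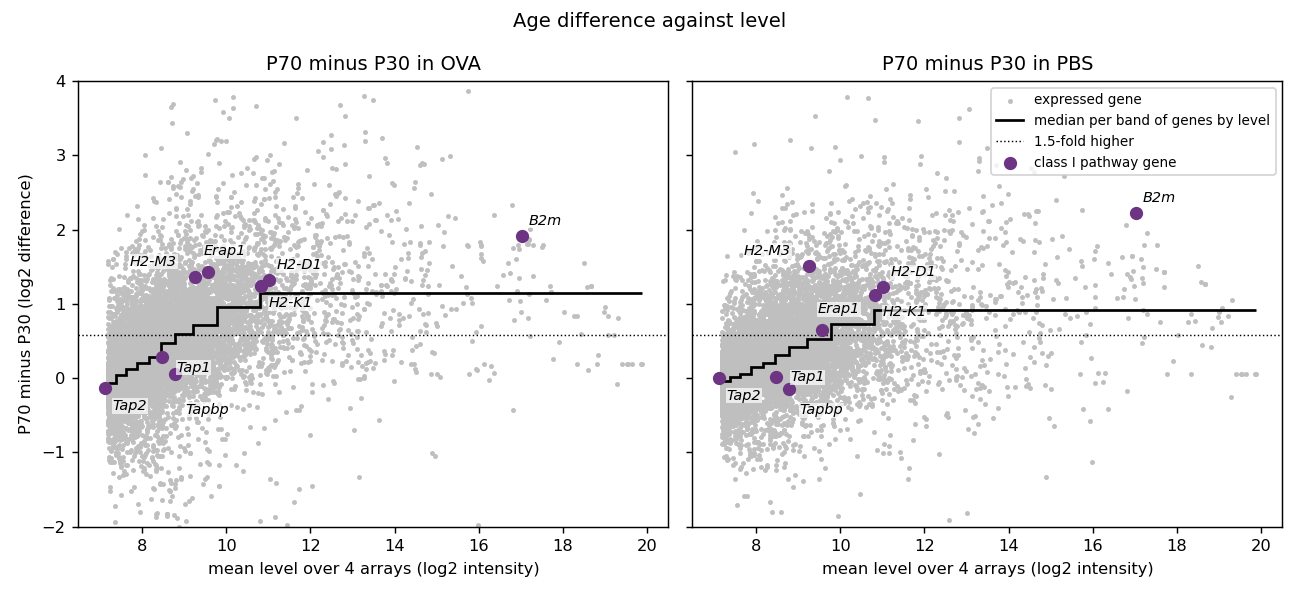
P70 minus P30 difference in log2 against the mean level over the 4 arrays, for OVA (left) and PBS (right), with each expressed gene in grey, the class I pathway genes in purple and the median per band of genes by level as a black step. The median climbs to 1.14 and 0.91 in the top band, H2-K1 and H2-D1 lie close to the step, B2m and H2-M3 lie above it in both panels, and 25 genes (left) and 7 genes (right) fall outside the vertical axis.

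Genes that work beside the members were taken from lists chosen with earlier results of these data known, and are described by counts and medians. For reading them, the P70 minus P30 median over expressed genes was 0.39 in OVA and 0.26 in PBS, with 38.6% and 29.1% at least 1.5-fold higher, and the OVA minus PBS median was 0.09 at P70 and -0.01 at P30. Among 19 other heavy chain genes measured, 11 were expressed. None was at least 1.5-fold higher at P70 than at P30, 3 were that much lower in OVA and 1 in PBS, and the medians were 0.16 in OVA and -0.01 in PBS. Among expressed genes, 4.37% in OVA and 2.93% in PBS were that much lower. The 11 had mean levels from 7.23 to 8.68, within the first to sixth bands by level. Over those bands the median age difference rose from -0.07 to 0.48 in OVA and from -0.03 to 0.32 in PBS. H2-Q4, a nonclassical chain, had a level of 8.47 in OVA and 8.16 in PBS at P70, against 7.90 in OVA and 7.67 in PBS at P30, the same order as H2-K1. H2-T10, another nonclassical chain, had 8.95 in OVA and 8.62 in PBS at P70, against 8.54 and 8.63 at P30. H2-M10.4 was the only one past 1.5-fold with OVA, at -0.68 at P70. Many of these genes belong to families of close copies, and 8 of the 19 lie below the floor.

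The proteasome makes the peptides that TAP carries. Of 6 expressed genes of the immunoproteasome and its activator, 4 were at least 1.5-fold higher at P70 in OVA and 5 in PBS, with medians of 1.10 and 0.89. Psmb10, a catalytic subunit induced by interferon gamma, was higher by 2.23 in OVA and 2.0 in PBS, and Psmb8, another, by 1.33 and 1.09. Pomp, the chaperone that assembles proteasomes, was higher by 1.81 and 1.93. The constitutive subunits Psmb6 and Psmb7, which the induced ones replace, were higher as well, by 1.73 and 1.92 in OVA and by 1.77 and 1.58 in PBS. None of these genes reached 1.5-fold in either OVA comparison.

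Of 14 expressed partners of peptide loading and trimming, 4 were higher and 1 lower at P70 in OVA, and 3 were higher in PBS. The median was 0.25 in OVA and 0.10 in PBS, close to expressed genes. Bcap31, which sorts membrane proteins out of the endoplasmic reticulum, was higher by 1.82 in OVA and 1.70 in PBS, and Sar1b, a GTPase of transport vesicles, by 1.90 and 1.21. Hspa5, the chaperone BiP, was lower by 0.88 in OVA and had -0.35 in PBS. No partner reached 1.5-fold with OVA; Sar1b had -0.54 at P30 and Hspa5 had 0.43.

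**Figure D4:**
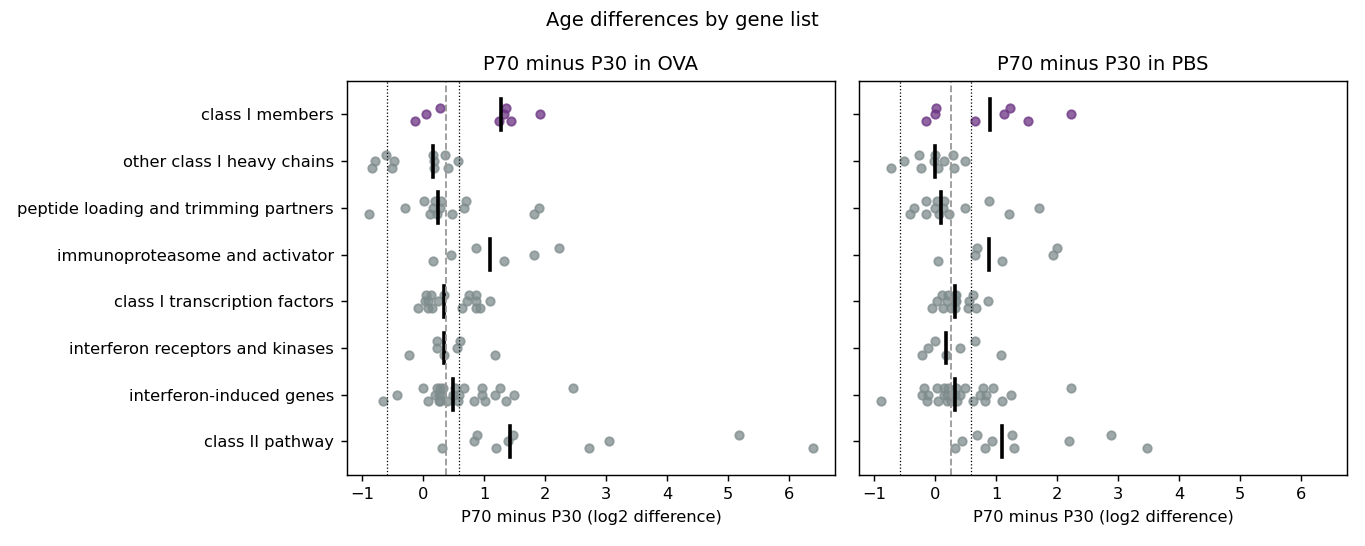
P70 minus P30 differences in log2 for the 8 class I members and lists of related genes, in OVA (left) and in PBS (right), with 1 point per member or expressed list gene, black bars at list medians, a dashed line at the median of expressed genes and dotted lines at 1.5-fold. Medians of the class I pathway genes (1.28 and 0.89) lie near those of the immunoproteasome (1.10 and 0.89), and medians of other heavy chains (0.16 and -0.01) lie lower. The lists differ in probe set level, with which age differences ran on these arrays.

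Transcription factors known to act on class I genes were followed because Nlrc5 itself has no value. Of 17 expressed, 8 were at least 1.5-fold higher at P70 in OVA and 3 in PBS, with medians of 0.35 and 0.32. Creb1, which binds the CRE and X2 letters, was higher by 1.11 in OVA and had 0.55 in PBS. Rfxank, a subunit of the RFX complex on class I and class II promoters, was higher by 0.94 and 0.66. No factor reached 1.5-fold in an OVA comparison, the highest values at P70 being 0.48 for Creb1 and 0.45 for Irf8, a factor of myeloid cells.

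Of 7 expressed interferon receptors and kinases, 2 were higher at P70 in each treatment. Their medians were 0.34 in OVA and 0.18 in PBS, against 0.39 and 0.26 over expressed genes of all levels. Ifnar2, a chain of the type I interferon receptor, was higher by 1.18 in OVA and 1.07 in PBS. Of 27 expressed interferon-induced genes, 11 were higher and 1 lower at P70 in OVA, and 9 higher and 1 lower in PBS, with medians of 0.50 and 0.32. These counts are near the background of 38.6% and 29.1% higher. Ifitm3, which blocks virus entry, was higher by 2.45 and 2.22, and Ifih1, the RNA sensor MDA5, by 1.5 and 1.24. Isg15, a ubiquitin-like modifier, was the lower one in each treatment and fell by 0.66 in OVA and by 0.88 in PBS. None of the 27 reached 1.5-fold with OVA at either age, and their OVA medians were 0.15 at P70 and 0.01 at P30.

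Other molecules that pair with B2m or bind class I were fewer. Mr1, which presents vitamin metabolites, Hfe, a regulator of iron uptake, and Fcgrt, the neonatal Fc receptor, were all expressed and all at least 1.5-fold higher at P70 in OVA, by 0.93, 1.00 and 0.66. In PBS the first pair were higher by 0.76 and 0.94, and Fcgrt had 0.49. The medians of these 3 were 0.93 in OVA and 0.76 in PBS. Of the 5 partners of B2m measured, the other 2 lay below the floor. Of these, Cd1d1 had -0.01 in OVA and -0.08 in PBS, and Cd1d2 had 0.16 and -0.10. Among expressed genes, 38.6% in OVA and 29.1% in PBS were at least 1.5-fold higher at P70. Of 12 receptors for class I measured, 2 were expressed. Klrd1, the CD94 chain of NK cell receptors, was higher by 2.18 in OVA and 1.65 in PBS, and Lilra6 by 1.07 and 0.81. The other 10 lay below the floor, and the expressed T and NK cell markers, given below, had negative age medians.

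The class II pathway, which presents peptides from outside the cell, differed with OVA where class I did not reach the threshold. Of 10 expressed class II genes, 4 were at least 1.5-fold higher with OVA at P70 and 2 were that much lower at P30, with medians of 0.49 and -0.14. Among expressed genes, 4.00% were that much higher with OVA at P70 and 0.90% that much lower at P30. H2-Eb1, a class II beta chain, had a level of 14.40 in OVA and 12.19 in PBS at P70, against 8.01 in OVA and 8.72 in PBS at P30. H2-Ab1, another beta chain, had 14.76 and 13.05 at P70, against 9.58 and 10.17 at P30. At P30 H2-Eb1 and H2-Ab1 were thus lower in OVA while H2-K1, H2-D1, H2-M3 and B2m were higher by under 1.5-fold. H2-Ab1 only just passed the threshold there, at -0.588 against 0.585 in size. None of the other expressed class II genes reached 1.5-fold at P30. Ifi30 had -0.53, H2-Aa -0.40 and the beta chain gene H2-DMb1 -0.28. The beta chain genes H2-DMb2 and H2-Ob were not lower, at 0.003 and 0.08, nor were Ctss at 0.40, H2-DMa at 0.15 and H2-Oa at 0.05. Between the ages, 9 class II genes were higher at P70 in OVA and 8 in PBS, with medians of 1.43 and 1.09. Among expressed genes, 38.6% and 29.1% were that much higher. In the top band by level, which holds H2-Eb1 and H2-Ab1, 77.6% and 67.2% were.

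**Figure D5:**
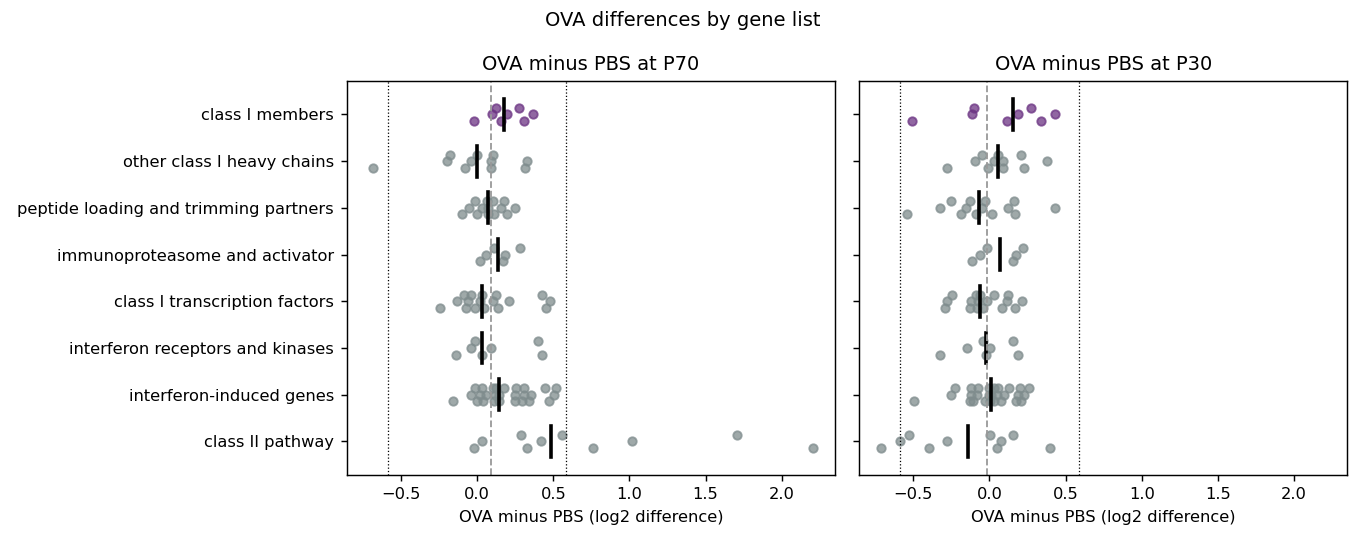
OVA minus PBS differences in log2 at P70 (left) and at P30 (right) for the 8 class I members and lists of related genes, with 1 point per member or expressed list gene, black bars at list medians, a dashed line at the median of expressed genes and dotted lines at 1.5-fold. The class I genes stay inside 1.5-fold at both ages, whereas 4 class II genes lie above it at P70 and 2 below it at P30. Of the latter, H2-Ab1 only just passes the line, at -0.588. Of expressed genes, 4.00% lie above it at P70 and 0.90% below it at P30.

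Markers of the cells in the pools moved with age and OVA beside these results. All 13 measured microglia markers were expressed, among them Siglech, with levels of 17.50 in OVA and 17.47 in PBS at P70, against 16.93 in OVA and 16.93 in PBS at P30, and 7 of 13 were at least 1.5-fold higher at P70 in OVA and 5 in PBS, where Csf1r was lower, at -0.65. Among expressed genes 38.6% and 29.1% were that much higher. All 11 neutrophil markers were expressed, and 10 were higher at P70 under each treatment. Their summed intensity was 754808 in OVA and 887284 in PBS at P70, against 23260 in OVA and 70866 in PBS at P30, and 7 of 11 were lower with OVA at P30. All 8 monocyte markers measured were expressed, with sums of 25952 in OVA and 23380 in PBS at P70, against 3161 and 3146 at P30. With OVA at P70, 2 of the 8 were at least 1.5-fold higher, S100a4 by 1.16 and Treml4 by 0.97, and the median was 0.39. Of 10 expressed markers of border-associated macrophages, the macrophages of meninges and vessels, 6 were higher with OVA at P70, and the sums over 12 measured were 10380 in OVA and 4245 in PBS at P70, against 3010 and 3366 at P30. Expressed markers numbered 5 of 10 for T and NK cells, 2 of 5 for B cells, 2 of 6 for dendritic cells, 1 of 9 for endothelial and mural cells and 2 of 7 for astrocytes. Of the 5 T and NK cell markers, 2 were at least 1.5-fold higher and 1 lower at P70 in OVA, and 1 and 1 in PBS. Their medians were -0.40 and -0.13, and Klrb1c was the lower one, at -1.16 and -0.71. The B cell marker Ighm had a level of 16.16 in OVA and 15.84 in PBS at P70, against 14.38 and 14.21 at P30. Its P70 minus P30 difference was 1.78 in OVA and 1.63 in PBS, and that of Cd79b, the other expressed B cell marker, was 0.28 and 0.77. No marker of oligodendrocytes, neurons or erythroid cells was expressed, and of choroid plexus markers 1 of 5 was, Ttr. Ttr had a level of 12.02 in OVA and 7.90 in PBS at P70, against 9.32 in OVA and 7.45 in PBS at P30, higher with OVA by 4.12 and 1.87. Both expressed astrocyte markers were higher with OVA at P70, Ndrg2 by 0.89 and Slc1a3 by 0.70. Beside these marker counts, 4.00% of expressed genes were at least 1.5-fold higher with OVA at P70 and 0.90% that much lower at P30. The part of these cells in the class I differences was not tested.

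Genes whose 4 levels ran most like a member's were named by the root mean square distance between log2 levels, each gene centred on its own mean, over the 4 arrays and 8815 expressed genes. H2-D1 lay 0.056 from H2-K1, and 28 expressed genes outside the list (0.318%) lay nearer to H2-K1, where the median gene lay at 0.47. H2-M3 lay 0.14 from H2-K1, and B2m lay 0.46 from it, close to the median gene. The genes nearest to H2-K1 were Vps50 at 0.013, Hikeshi at 0.026 and Rpl9-ps1 at 0.029, and those nearest to H2-D1 were Pcbd2 at 0.010, Gmps at 0.030 and Rpl9-ps1 at 0.032. Nearest to H2-M3 were Atp6v1c1 at 0.027, Hnrnpd at 0.033 and Rps12-ps16 at 0.035. Nearest to B2m were Xlr4d-ps at 0.030, Rps15a-ps7 at 0.035 and Xlr4e-ps at 0.037, all named as pseudogenes and uncertain as to the copy measured. Nearest to Erap1 were Cisd1 at 0.013, Cops2 at 0.025 and Atp6v1b2 at 0.035. With 4 points per gene, many genes share a pattern, and the distances describe these arrays alone. The members' median ran nearest to Smndc1 and Bst2 (tetherin, induced by interferon), both at 0.042, and to Rpl3-ps1, named as a pseudogene, at 0.043.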

How the data were processed

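RNA of pooled microglia was amplified with the GeneChip WT Pico kit and hybridised to 1-colour Affymetrix arrays, per the labels' protocols. The authors deposited 1 intensity for each probe set on each array, which they had normalized and which was read here as linear. RMA and Affymetrix Expression Console 1.4.1 are named per the submitters' processing notes. The scaling between arrays and the genome build are not given in the sources used here.

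Of 65956 probe sets, 30604 carried 1 gene symbol, 2146 several and 33206 none here. Symbols were updated for 827 of them through Entrez identifiers with a RefSeq table (GRCm38.p6), used for names and promoter windows. Predicted genes, small RNAs and receptor families were left out, the brightest probe set was kept per gene, and log2 was taken with no further normalization (Python 3.11.15, pandas 2.3.3, statsmodels 0.14.6). The floor was the median of the genes' mean levels. With 1 array per group no test was run, and the number of arrays limits the precision. Named genes were all members and, per list and comparison, at most 4 expressed genes of largest difference and at most 2 of highest level, with up to 3 genes for each cell type list. For OVA against PBS at P30, all expressed class II genes were named. Genes nearest to a member were named for members whose levels spanned at least 1.5-fold. The counting code was run on simulated arrays with planted changes, for OVA minus PBS at P70 only. Their noise was set by hand and had no trend along the level, so the run says nothing on the spread of these arrays. Alternatives were a pseudocount of 16, no filter, a stricter floor (8.45), the mean of a gene's probe sets, median centring, quantile normalization, centring along the level, thresholds of 1.25-fold and 2-fold, and the members at or above the floor alone, the last added after the values were seen. The members and lists were chosen with earlier results of these data known.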

Additional observations from a re-analysis of the deposited data

Results flagged for a closer look

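The OVA minus PBS differences of 4 of the 8 genes had opposite signs at the 2 ages, and the difference was not tested, since each group has 1 array. The OVA effect at P70 minus that at P30 was 0.78 for Erap1, from 0.28 at P70 and -0.51 at P30. It was 0.27 for Tap1, 0.20 for Tapbp and -0.14 for Tap2. Opposite signs were found in 51.5% of expressed genes (4539 of 8815), so the share among the 8 is near the background.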

How the results depend on the processing

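Scaling moved the age values most. Under centring along the level, the median P70 minus P30 difference of the 8 genes was 0.24 in OVA and 0.22 in PBS, and 3 and 2 genes were at least 1.5-fold higher, against 5 and 5 as reported, where expressed genes gave 13.3% and 11.6%, against 38.6% and 29.1%. At a 2-fold threshold no gene (0) passed for the OVA effect at P70 minus that at P30, against 1. At a lower threshold (0.32 on the log2 scale), 1 gene was higher with OVA at P70, and 2 were higher and 1 lower at P30, where 17.3% of expressed genes were higher at P70, and 3.73% higher and 5.65% lower at P30. Since each member has 1 probe set, neither the probe set mean nor the wider gene set could move a single gene. Of 160 values under the other 4 settings, 153 stayed on their side of 1.5-fold, although values under it changed sign in places, as for Tap1, Tap2 and Tapbp, and 7 fell below it: H2-K1 and H2-D1 in both age comparisons under centring along the level, and Erap1 between the ages in PBS at 0.09 under that centring, 0.36 under median centring and 0.47 under quantile normalization. B2m between the ages ranged from 0.80 to 2.40 in OVA and from 1.16 to 2.59 in PBS. No paired analysis was possible because each group has 1 array. Close copies of H2-K1 and H2-D1, the unstated scaling and levels near the floor limit what these values show. Dropping members near an array's upper limit removed none.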
